A study of Mus musculus with 4 samples.

Results

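CXC chemokines and their receptors were examined in mouse hematopoietic stem and progenitor cells (HSPCs) that had lost Chaf1b, a subunit of the histone chaperone CAF-1. The 10 genes were picked by name, with earlier results of these data known. They were the neutrophil attractants Cxcl1, Cxcl2 and Cxcl3, the interferon-type chemokines Cxcl9, Cxcl10 and Cxcl11, membrane-bound Cxcl16 and the receptors Cxcr2, Cxcr3 and Cxcr4. Each was found under a single identifier among the 43629 genes counted. Both groups were CD117+ cells of C57Bl/6 mice homozygous for the floxed allele, Chaf1b (fl/fl), cultured, per the labels, with the cytokines IL3 at 10, IL6 at 20 and SCF at 50 ng/mL. The 2 control libraries came from cells spinfected with the empty retroviral vector MIGR1, and the 2 Chaf1b-deleted libraries, labelled Chaf1b (-/-), from cells given MIGR1-Cre. Cells carrying the vector were sorted by its eGFP before RNA extraction 48 hours after spinfection, so the libraries describe cells that had taken up the virus. The labels do not say whether the libraries of a group came from separate mice or cultures. The p-values therefore measure the spread between these libraries, which need not be that between animals. The controls differed by more than counting error (chi-square per degree of freedom 44.4 over genes), with the macrophage marker C1qa at 15 and 589 counts. The Chaf1b-deleted libraries differ in Xist and Y-linked counts, given below, and so are not repeats of the same cells.

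Chemokines are small secreted proteins that attract leukocytes through G protein-coupled receptors. CXC chemokines with a glutamate-leucine-arginine motif, among them Cxcl1, Cxcl2 and Cxcl3, bind Cxcr2 and recruit neutrophils, and their genes are classical targets of NF-κB downstream of IL-1, TNF and Toll-like receptors. Cxcl9, Cxcl10 and Cxcl11 lack this motif, are induced by interferons and attract activated T and NK cells through Cxcr3. In the bone marrow, Cxcr4 and its ligand Cxcl12 retain stem cells and neutrophils, whereas Cxcr2 signalling favours the release of neutrophils into blood.

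Between 18468637 and 25409926 reads were counted on genes in a library, and levels are given as CPM, which is the count relative to that total (counts per 1000000 counted reads). A count of 3 corresponded to between 0.118 and 0.162 CPM. Chaf1b itself fell from 69.1 ± 15.8 CPM in control to 17.0 ± 1.28 CPM in Chaf1b-deleted HSPCs (SD, n = 2 each, edgeR quasi-likelihood, adjusted p = 0.0330). Kit, which encodes CD117, was present in all libraries at between 95.6 and 124 CPM. The culture also held much RNA of maturing granulocytes, since the 6 neutrophil markers S100a8, S100a9, Ngp, Ltf, Camp and Ly6g summed to between 44621 and 63878 CPM. Chaf1b-deleted library 1 stood apart from the other 3 libraries. It had 7905 counts of Xist, against between 23 and 33, and 3 counts over 4 Y-linked genes, against between 5805 and 7771. The 20 listed interferon-stimulated genes also set it apart, with a summed level of 2461 CPM against between 320 and 389 CPM in the others. The fitted change of each member tested, and of each other gene called, is therefore also given without this library, and Chaf1b had a log2 fold change of -2.03 without it (adjusted p = 0.0251).

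The genes lie in a few clusters. Cxcl3 (chr5:91215129-91217112 in mm9), Cxcl1 (chr5:91320267-91322141) and Cxcl2 (chr5:91332897-91334935) are on the plus strand of chromosome 5, in a stretch that also holds Cxcl5, Ppbp, Pf4 and Cxcl15. On the minus strand of the same chromosome, Cxcl9 (chr5:92750357-92757105), Cxcl10 (chr5:92775664-92777915) and Cxcl11 (chr5:92788570-92794511) follow each other. Cxcl11 is annotated there as a processed transcript, not as protein-coding. Cxcl10 and Cxcl11 overlap Art3 on the opposite strand, and Cxcl16 (chr11:70267485-70273486) overlaps Zmynd15. The receptors are Cxcr2 (chr1:74200563-74207812), Cxcr4 (chr1:130484776-130488870) and Cxcr3 (chrX:98926874-98929608). Little exonic sequence of these genes recurs in the genome, from 0.0% of the 31-base stretches of Cxcl1, Cxcl10 and Cxcr3 to 12.7% for Cxcl16 and 16.4% for Cxcr2.

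The proximal promoters of the neutrophil attractants are printed here because they share an element. The 120 bases before the RefSeq transcription start are shown 5′ to 3′ on the gene's strand in build GRCm38.p6, and capitals mark matches to the κB consensus, the DNA sequence that NF-κB binds.
Cxcl1 (chr5:90891125-90891244, plus strand): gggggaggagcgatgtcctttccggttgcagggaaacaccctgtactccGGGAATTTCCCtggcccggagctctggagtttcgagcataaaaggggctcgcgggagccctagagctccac
Cxcl2 (chr5:90903779-90903898, plus strand): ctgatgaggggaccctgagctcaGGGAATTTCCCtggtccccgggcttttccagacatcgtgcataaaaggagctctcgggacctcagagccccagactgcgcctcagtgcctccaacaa
Cxcl3 (chr5:90785981-90786100, plus strand): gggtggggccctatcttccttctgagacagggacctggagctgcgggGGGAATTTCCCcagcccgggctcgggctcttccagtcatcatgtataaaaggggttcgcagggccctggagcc
The same 11 bases occur in all 3 promoters, starting 71 bases before the start of Cxcl1, 97 before that of Cxcl2 and 73 before that of Cxcl3.

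For comparison, the 250 bases before the start of Cxcl10 hold both κB matches and a match to the interferon-stimulated response element, searched as GAAANNGAAA, all in capitals below. Cxcl9, shown with the same length, held no match to either motif or to the gamma-activated site, searched as TTCNNNGAA, and is in lower case throughout.
Cxcl10 (chr5:92348890-92349139, minus strand): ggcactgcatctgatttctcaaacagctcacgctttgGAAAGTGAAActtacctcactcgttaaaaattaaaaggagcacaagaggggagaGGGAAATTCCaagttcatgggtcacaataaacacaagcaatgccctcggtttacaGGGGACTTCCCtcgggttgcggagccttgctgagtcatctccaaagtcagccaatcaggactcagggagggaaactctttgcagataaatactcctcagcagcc
Cxcl9 (chr5:92328080-92328329, minus strand): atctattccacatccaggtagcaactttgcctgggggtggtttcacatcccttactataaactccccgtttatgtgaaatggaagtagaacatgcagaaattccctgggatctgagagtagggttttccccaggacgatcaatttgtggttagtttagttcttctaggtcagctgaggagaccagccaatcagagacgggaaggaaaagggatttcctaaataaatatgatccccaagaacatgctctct
Promoters of 8 of the 10 genes were matched in the RefSeq table. None of the 3 receptors had a match to any of the 3 motifs within 250 bases. Over all 32851 promoters of that length, searched on both strands with overlapping matches counted as 1, a κB match occurred in 7.25%, the response element in 2.98% and the gamma-activated site in 7.02%. A match describes these letters and does not show that a factor binds there. The lack of a match to these fixed patterns within 250 bases does not show that a gene has no such site.

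Of the 7 ligands, the neutrophil attractants Cxcl3 and Cxcl2 had the highest levels per kilobase of exon in both Chaf1b-deleted libraries. Cxcl3 had 0.22 and 2.2 CPM in the control libraries and 37.8 and 24.9 CPM in the Chaf1b-deleted libraries. Both deleted libraries were above both controls, and the controls themselves lay far apart, at 5 and 56 counts. The fitted log2 fold change was 4.72 (SE 0.79) and did not pass the threshold (edgeR quasi-likelihood, adjusted p = 0.0694). Cxcl2 had 1.36 and 5.71 CPM in control and 55.5 and 18.2 CPM in Chaf1b-deleted HSPCs. The groups did not overlap, but the deleted libraries lay far apart, and the log2 fold change of 3.46 (SE 0.76) was not called (edgeR quasi-likelihood, adjusted p = 0.124). Cxcl1 stayed near the detection floor in 3 of the 4 libraries, with 3 and 4 counts in control and 25 and 6 counts after deletion. It did not reach the count filter, and the ratio of its summed CPM was 5.08 (95% exact interval 2.19 to 13.7, counting error only). Only the first deleted library had a Cxcl1 level whose counting interval, from 0.687 to 1.57 CPM, lay clear of those of the controls.

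The order of Cxcl2 and Cxcl3 shifted between groups when levels were divided by exonic length. Per kilobase of exon, Cxcl2 was above Cxcl3 in both controls, at 0.745 and 3.12 against 0.218 and 2.18 RPKM (CPM divided by the exonic length in kilobases). After deletion, Cxcl3 was the higher gene per kilobase in both libraries, at 37.4 and 24.7 RPKM against 30.3 and 9.94 RPKM for Cxcl2. In Chaf1b-deleted library 1 this order rests on the annotated exonic lengths, 1830 bases for Cxcl2 and 1009 for Cxcl3. Undivided, Cxcl2 had more counts there, 1306 against 889. The ratio of raw Cxcl2 to Cxcl3 counts, which does not depend on the scaling of a library, was 6.2 and 2.59 in control and 1.47 and 0.73 in Chaf1b-deleted HSPCs. The difference between the ratios was not tested, and an exact permutation test of 2 against 2 libraries could not give a two-sided p under 0.333. Without Chaf1b-deleted library 1, the log2 fold change was 4.26 for Cxcl3 (edgeR quasi-likelihood, adjusted p = 0.0515) and 2.28 for Cxcl2 (adjusted p = 0.183). Leaving out any other library brought both genes past the threshold, with log2 fold changes of 3.88 for Cxcl3 and 2.77 for Cxcl2 without control library 1, 7.15 and 4.82 without control library 2, and 5.07 and 4.10 without Chaf1b-deleted library 2 (adjusted p at most 0.0367).

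Of the interferon-type chemokines, Cxcl9 rose to the same level in both Chaf1b-deleted libraries. It had 0.088 and 0.197 CPM in control, from 2 and 5 counts, and 3.19 and 3.30 CPM after deletion, from 75 and 61 counts. The fitted log2 fold change was 4.47 (SE 0.62, edgeR quasi-likelihood, adjusted p = 0.0413), and the ratio of summed CPM was 22.3 (95% exact interval 10.5 to 56.4, counting error only). Without Chaf1b-deleted library 1 the log2 fold change was 4.38 (edgeR quasi-likelihood, adjusted p = 0.0295). The call did not hold under the other scalings (edgeR quasi-likelihood, adjusted p-values of 0.0536 to 0.0727) or with a replicate block (adjusted p = 0.11). A minimum of 10 counts in each library removes Cxcl9, which passed the main filter through the Chaf1b-deleted libraries, where it is high.

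Cxcl10 behaved differently from Cxcl9 across the libraries. It was already present in control at 2.16 and 1.89 CPM, and reached 14.4 CPM in the first and 5.2 CPM in the second Chaf1b-deleted library. All 4 counting intervals were separate between the groups, and that of the second deleted library ran from 4.21 to 6.35 CPM. The log2 fold change of 2.35 (SE 0.57) did not pass the threshold (edgeR quasi-likelihood, adjusted p = 0.154), and without Chaf1b-deleted library 1 it was 1.28 (adjusted p = 0.286). It passed without control library 1 (2.45, adjusted p = 0.00796), control library 2 (2.24, adjusted p = 0.0208) or Chaf1b-deleted library 2 (2.97, adjusted p = 0.0126). Counts of Cxcl10 exceeded those of Cxcl9 by 24.5 and 9.6 times in control and by 4.51 and 1.57 times after deletion. Cxcl11 was at the floor in all libraries, with 2 and 1 counts in control and 4 and 2 after deletion, a ratio of 2.29 whose 95% interval of 0.49 to 14.2 covers no change. Art3, which overlaps Cxcl10 and Cxcl11 on the other strand, had 18 and 19 counts in control and 49 and 54 counts after deletion. Whether its reads could enter the count of Cxcl10 depends on the strand setting of the counting, which was not tested.

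**Figure D1:**
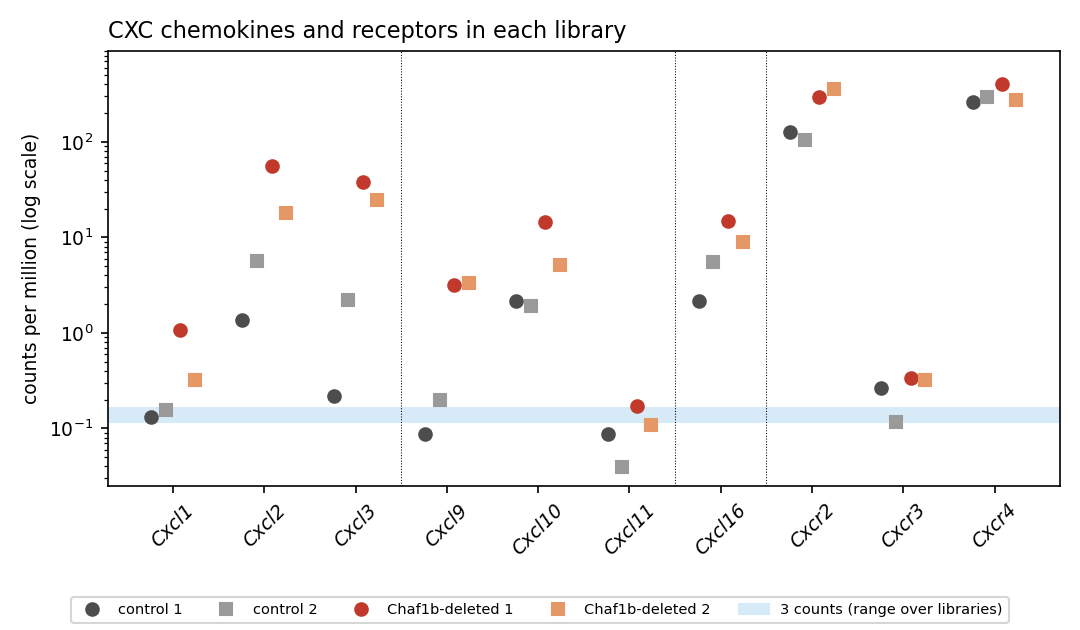
Level of each CXC chemokine and receptor in each of the 4 libraries, in CPM on a log axis; circles and squares are libraries 1 and 2 of each group, and the blue band is the level of 3 counts, 0.118 to 0.162 CPM. Cxcl2, Cxcl3 and Cxcl9 show the widest gaps between groups, Cxcl11 and Cxcr3 lie near the band, and Cxcr4 is the gene whose groups overlap.

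Cxcl16 is made as a membrane protein that can be shed by the proteases Adam10 and Adam17, and serves as the ligand of Cxcr6. It had 2.16 and 5.47 CPM in control and 14.7 and 8.88 CPM in Chaf1b-deleted HSPCs. The groups did not overlap, although control library 2 lay closer to Chaf1b-deleted library 2 than to the other control on a log scale. The log2 fold change was 1.68 (SE 0.52, edgeR quasi-likelihood, adjusted p = 0.243), 1.14 without Chaf1b-deleted library 1 (adjusted p = 0.420) and 2.49 without control library 2, where it passed the threshold (adjusted p = 0.00327). Zmynd15, on the opposite strand, had 9 and 16 counts in control and 70 and 29 counts after deletion, against 49, 139, 346 and 164 counts of Cxcl16. The proteases showed no called change, with log2 fold changes of -0.19 for Adam10 and -0.22 for Adam17. Cxcr6 had 1.58 and 3.42 CPM in control and 0.935 and 2.17 CPM after deletion (log2 fold change -0.70, SE 0.59, adjusted p = 0.698).

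Cxcr2, the receptor of Cxcl1, Cxcl2 and Cxcl3, rose after Chaf1b deletion. It had 126 and 105 CPM in control and 297 and 357 CPM in Chaf1b-deleted HSPCs, a 2.87-fold change (log2 fold change 1.52, SE 0.22, edgeR quasi-likelihood, adjusted p = 0.0429). Both deleted libraries were high, with the larger value in library 2. Without Chaf1b-deleted library 1 the log2 fold change was 1.55 (edgeR quasi-likelihood, adjusted p = 0.0236). Without control library 2 the call was lost (log2 fold change 1.38, adjusted p = 0.0917), as it was with DESeq2's size factors in the same fit (adjusted p = 0.0554) or library size only (adjusted p = 0.0583). The call was also lost with at least 10 counts in every library (edgeR quasi-likelihood, adjusted p = 0.0651) or with a replicate block (adjusted p = 0.0927). Beside Cxcr2, 0 of the 6 neutrophil markers were called by edgeR's quasi-likelihood or exact test and 1 by DESeq2. At an unadjusted p under 0.05, 1 was higher (9.15% over all genes tested), and the median log2 fold change was 0.34. Their summed level was 44621 and 52288 CPM in control and 63878 and 48142 CPM after deletion. In bulk RNA, more cells that express a gene cannot be told apart from more RNA per cell. Cxcr1, the neighbour of Cxcr2 and its closest relative, had 0.924 and 0.157 CPM in control and 1.61 and 4.44 CPM after deletion (log2 fold change 2.46, SE 0.83, adjusted p = 0.282). It had 4 counts in control library 2 and passed the count filter through the Chaf1b-deleted libraries.

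Cxcr4, the receptor of Cxcl12, was the most abundant of these transcripts per kilobase of exon in every library, at between 145 and 225 RPKM, against between 34.5 and 118 RPKM for Cxcr2. It had 262 and 298 CPM in control and 407 and 274 CPM in Chaf1b-deleted HSPCs. The second deleted library lay between the controls. The log2 fold change was 0.33 (SE 0.29, edgeR quasi-likelihood, adjusted p = 0.712), and it turned to -0.11 without Chaf1b-deleted library 1 (adjusted p = 0.852). The ratio of Cxcr2 to Cxcr4 counts, free of library scaling, was 0.482 and 0.351 in control and 0.729 and 1.30 after deletion, so both deleted libraries had a higher ratio than both controls. The ligand Cxcl12, made mainly by marrow stroma, had at most 5 counts in a library. Cxcr3, the receptor of the interferon-type chemokines, had 6 and 3 counts in control and 8 and 6 after deletion (ratio 1.78, 95% exact interval 0.719 to 4.67, counting error only), and no difference was detectable at this depth.

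**Figure D2:**
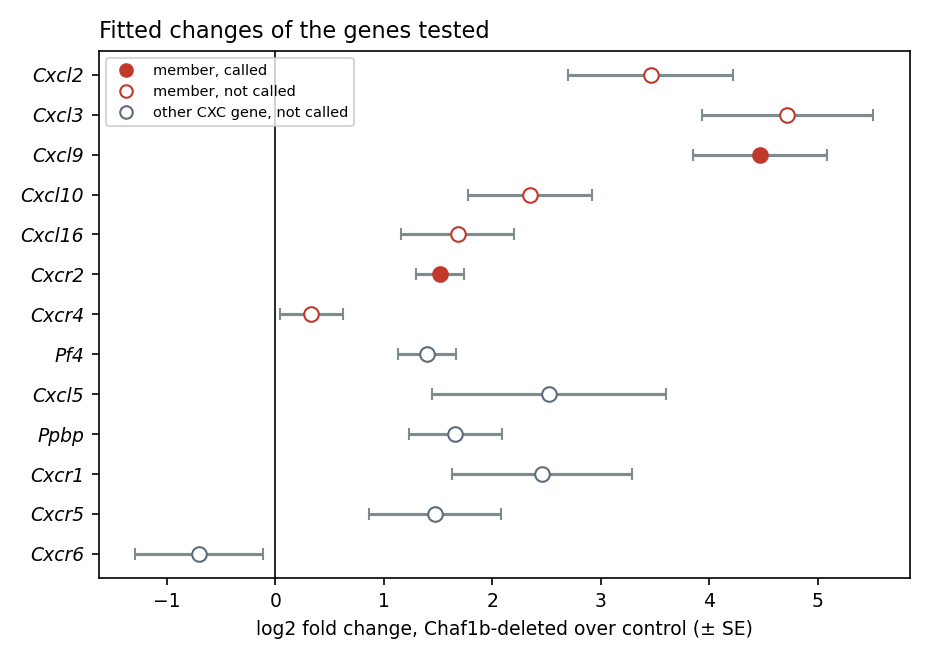
Fitted log2 fold change with its standard error for the 7 tested members and the 6 tested other CXC genes, Chaf1b-deleted over control; filled points passed the threshold. Cxcl9 and Cxcr2 are filled, Cxcr4 and Cxcr6 lie nearest to or below 0, and Cxcl3 has the highest value, 4.72.

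Over the 10 genes, 2 were called higher, Cxcl9 and Cxcr2, and 0 were called lower, with 0 lower also at an unadjusted p under 0.05, in edgeR's exact test and in DESeq2. A call needed a change of at least 1.5-fold and an adjusted p-value under 0.05, which 0.37% of the 16500 genes tested met in the upward and 0.00606% in the downward direction. Cxcl1, Cxcl11 and Cxcr3 did not pass the filter on low counts. Cxcl3 and Cxcl9 passed it through the Chaf1b-deleted libraries, since at least 1 control had 5 or fewer counts of each, so their being higher there is tied to their having been tested. The members were chosen with earlier results of these data known, so the shares that follow are not independent of that choice. Of the 7 genes tested, 6 were higher at an unadjusted p under 0.05, against 9.15% of all genes tested. In 9 of the 10 genes, both deleted libraries were above both controls in CPM, the exception being Cxcr4. The same held for 21.4% of all genes tested, a set without Cxcl1, Cxcl11 and Cxcr3, which are among the 9. With edgeR's exact test, 5 of the 7 were called higher (Cxcl2, Cxcl3, Cxcl9, Cxcl10 and Cxcr2), when 3.25% of all genes were. DESeq2's 5 calls were Cxcl3, Cxcl9, Cxcl10, Cxcl16 and Cxcr2, when it called 472 of the 16500 genes higher. Without Chaf1b-deleted library 1 the calls were Cxcl9 and Cxcr2 (0.721% of all genes), and without Chaf1b-deleted library 2 they were Cxcl2, Cxcl3, Cxcl9, Cxcl10 and Cxcr2 (1.89%). A fit on 3 libraries takes the spread from the group that still has 2, and assumes that the lone library varies like them.

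The libraries were then compared one at a time with the mean of the controls, to place the chemokines beside the interferon-stimulated and NF-κB genes. For Cxcl9, the log2 ratio was 4.48 in Chaf1b-deleted library 1 and 4.54 in library 2. For Cxcl3 it was 4.96 and 4.36, and for Cxcr2 1.36 and 1.63. Cxcl2 (3.97 and 2.36), Cxcl10 (2.83 and 1.36), Cxcl1 (2.88 and 1.17) and Cxcl16 (1.95 and 1.22) were higher in library 1, with library 2 still above the control mean. The interferon-stimulated genes differed far more between the libraries, with medians of 3.43 in library 1 and 0.19 in library 2. Of these 20 genes, 11 had both deleted libraries above both controls (21.4% over all genes tested) and 0 were called by the quasi-likelihood test. At an unadjusted p under 0.05, 17 were higher (9.15% over all genes), while edgeR's exact test called 8 (3.25% over all genes) and DESeq2 0. Oasl2, an antiviral gene of the list, had 8.97 and 11.3 CPM in control and 250 and 20.3 CPM after deletion. The part of the interferon response in the level of Cxcl10 in library 1 was not tested.

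**Figure D3:**
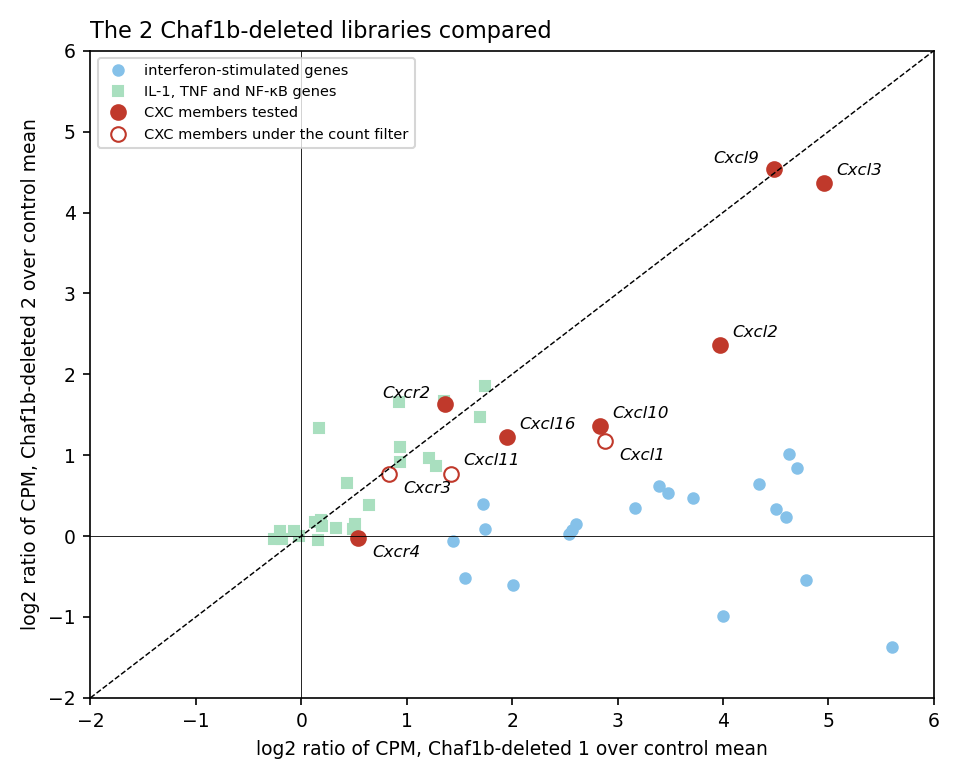
Log2 ratio of CPM over the control mean in Chaf1b-deleted library 1 (x axis) and library 2 (y axis), for the 10 CXC genes, the interferon-stimulated genes and the IL-1, TNF and NF-κB genes; the dashed line marks equal ratios. Cxcl9, Cxcl3 and Cxcr2 lie near the line, Cxcl2, Cxcl10 and Cxcl16 below it, and the interferon-stimulated genes, with a median of 3.43 on x and 0.19 on y, far below it.

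Of 23 genes of the IL-1, TNF and NF-κB pathway, all tested, edgeR's quasi-likelihood test called 1 higher and 0 lower (0.37% higher over all genes). The exact test (3.25% over all genes) and DESeq2 (472 of 16500 genes) each called 8 higher. An unadjusted p under 0.05 was reached by 9 genes upward (9.15% over all genes) and 0 downward, with a median log2 fold change of 0.38 against -0.03 over all genes tested. The called gene was Nfkbiz, an inducible nuclear cofactor of NF-κB, with 35.5 and 30.3 CPM in control and 83.6 and 105 CPM after deletion (log2 fold change 1.53, SE 0.21, edgeR quasi-likelihood, adjusted p = 0.0413), and 1.59 without Chaf1b-deleted library 1 (adjusted p = 0.0245). Its call was lost with DESeq2's size factors (adjusted p = 0.0503), library size only (0.0583) or at least 10 counts in every library (0.0651). Il1b, an inflammatory cytokine, had 12.8 and 26.0 CPM in control and 64.8 and 70.0 CPM after deletion (log2 fold change 1.82, adjusted p = 0.0779). Relb, an NF-κB subunit, had 7.34 and 7.40 CPM in control and 23.9 and 20.4 CPM after deletion (log2 fold change 1.62, adjusted p = 0.0771). The inhibitors Nfkbia (log2 fold change 1.13) and Tnfaip3 (1.04) were higher in both deleted libraries without being called. Tnf (0.26) and the subunits Rela (0.18) and Nfkb1 (0.22) had changes close to 0.

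Upstream of Cxcl9, Cxcl10 and Cxcl11, 12 of 14 genes of interferon signalling were tested and 0 were called in either direction by edgeR's quasi-likelihood test, while an unadjusted p under 0.05 was reached by 6 of the 12 upward (9.15% over all genes) and 0 downward, 0 were called by the exact test and 1 by DESeq2. Ifng, the cytokine for which Cxcl9 is a classical target, had 0 counts in all 4 libraries, which allows up to between 0.118 and 0.162 CPM. Ifnb1 had at most 1 count. Socs1, a feedback inhibitor of JAK kinases, had 10.8 and 10.5 CPM in control and 31 and 18.2 CPM after deletion (log2 fold change 1.26, SE 0.35, edgeR quasi-likelihood, adjusted p = 0.203). Irf1, a transcription factor induced by interferon gamma, had 37.6 and 45.9 CPM in control and 73.0 and 55.6 CPM after deletion. For Ifngr1, a subunit of the interferon gamma receptor, the direction was opposite, with a log2 fold change of -0.59 (adjusted p = 0.417).

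The other CXC ligands and receptors numbered 13, of which 6 were tested and 0 were called by edgeR's quasi-likelihood test. At an unadjusted p under 0.05, 5 were higher (9.15% over all genes). The exact test (3.25% over all genes) and DESeq2 (472 of 16500 genes) each called 2. Of the 5, Cxcl5 and Cxcr1 passed the filter on low counts through the Chaf1b-deleted libraries, since at least 1 control had 5 or fewer counts of each. Pf4 and Ppbp, platelet chemokines stored in megakaryocyte granules, lie beside Cxcl3 and were higher in both deleted libraries. Pf4 had 14.9 and 21.6 CPM in control and 37.3 and 58.5 CPM after deletion (log2 fold change 1.40, SE 0.27, edgeR quasi-likelihood, adjusted p = 0.0986), and Ppbp 4.53 and 2.24 CPM against 9.43 and 11.7 CPM (1.66, SE 0.43, adjusted p = 0.172). In contrast to Cxcl2, both had their larger change in Chaf1b-deleted library 2. Cxcl5, another Cxcr2 ligand, had 5 and 0 counts in control and 12 and 14 counts after deletion (log2 fold change 2.52, adjusted p = 0.404). Cxcr5, the receptor of Cxcl13, had 0.484 and 1.46 CPM in control and 2.08 and 3.30 CPM after deletion (1.47, adjusted p = 0.387). Ackr3, an atypical receptor for Cxcl12, had 3 and 17 counts in control and 1 and 2 after deletion. Cxcl12, Cxcl13, Cxcl14, Cxcl15, Cxcl17 and Ackr1 did not pass the filter either.

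Genes that neighbour the chemokine clusters were read beside them. In the Cxcl1 to Cxcl3 cluster, the 5 chemokine genes tested had log2 fold changes from 1.40 to 4.72, although Cxcl3 and Cxcl5 were testable only through the deleted libraries, where they are high. Among the other genes there, values were positive for Rassf6 (1.71) and 5830473C10Rik (1.59), at -288.2 and -330 kb from Cxcl1, and Mthfd2l, 40.0 kb beyond the start of Cxcl1, had 0.01. Around Cxcl10, Art3 had a log2 fold change of 1.70, Scarb2 0.62, Naaa and Uso1 -0.05 each, Ppef2 -0.28, Nup54 -0.62 and Sdad1 -0.65. None of these neighbours that is not a chemokine was called (edgeR quasi-likelihood).

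**Figure D4:**
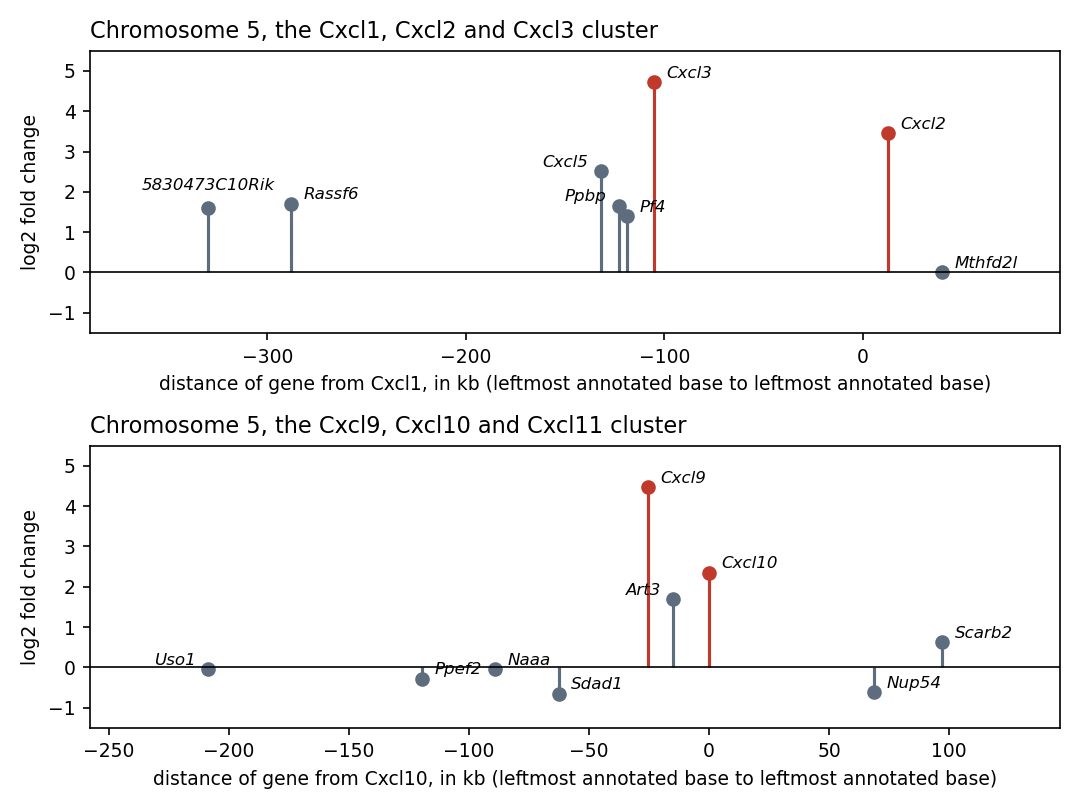
Fitted log2 fold change of each tested gene in and around the chemokine clusters on chromosome 5, against its distance in kb from Cxcl1 (top) or Cxcl10 (bottom); red marks the chemokines of the main set and grey other genes. The chemokine genes reach from 1.40 to 4.72, and Mthfd2l, Naaa and Uso1 stay near 0.

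Markers of cells known to make or respond to these chemokines moved with the groups in part. The 6 progenitor markers summed to 863 and 840 CPM in control and 676 and 797 CPM after deletion, and 1 of them, the cytokine receptor gene Flt3, was called higher (4.66 and 5.31 CPM against 19.3 and 22.7 CPM, log2 fold change 2.09, SE 0.28, edgeR quasi-likelihood, adjusted p = 0.0383), with 2.10 without Chaf1b-deleted library 1 (adjusted p = 0.0315) and no call with DESeq2's size factors (adjusted p = 0.0503). The progenitor list split into 3 genes with positive and 3 with negative log2 fold changes, among them Myb (475 and 492 CPM against 298 and 335 CPM, log2 fold change -0.59, adjusted p = 0.313), Gata2 (-0.22) and Kit (-0.08). For the 6 dendritic cell markers, the summed level was 130 and 644 CPM in control and 861 and 360 CPM after deletion, and 1 was called higher (0.37% over all genes). At an unadjusted p under 0.05, 4 were higher (9.15% over all genes), and edgeR's exact test (3.25%) and DESeq2 each called 3. Among the 4, Siglech had 18 and 5 counts in control and passed the filter on low counts through the Chaf1b-deleted libraries. The groups overlapped for Cd74 (log2 fold change 0.53) and H2-Ab1 (0.78), and Chaf1b-deleted library 2 lay below their control means (log2 ratio -0.41 and -0.15). The gene called, Fscn1, found in mature dendritic cells, had 1.41 and 2.64 CPM in control and 25.7 and 26.7 CPM after deletion (log2 fold change 3.72, SE 0.37, edgeR quasi-likelihood, adjusted p = 0.0254), and 3.64 without Chaf1b-deleted library 1 (adjusted p = 0.0135). Ccr7, which guides mature dendritic cells to lymph nodes, had 1.67 and 4.13 CPM in control and 35.0 and 20.3 CPM after deletion (adjusted p = 0.0555). None of the 6 macrophage and monocyte markers was called. At an unadjusted p under 0.05, 2 were higher (9.15% over all genes). The exact test of edgeR (3.25%) and DESeq2 (472 of 16500 genes) each called 1. This list split into 3 positive and 3 negative log2 fold changes, with a median of -0.08. C1qa and C1qb had -0.98 each, with controls far apart at 15 and 589 counts and at 31 and 959 counts. The sum of the 6 was 141 and 422 CPM in control and 365 and 280 CPM after deletion. The T cell markers summed to between 2.13 and 2.93 CPM and the NK cell markers to between 0.236 and 0.765 CPM, with Cd3e at 0 counts in Chaf1b-deleted library 1, Cd3g at 0 in control library 1 and Chaf1b-deleted library 2, and Ncr1 at 0 in Chaf1b-deleted library 2. Endothelial markers summed to 3.34 and 2.09 CPM in control and 7.18 and 7.53 CPM after deletion, fibroblast markers to 25.3 and 11.8 against 23.4 and 45 CPM, and megakaryocyte markers, which include Pf4 and Ppbp, to 94.5 and 92.6 against 139 and 238 CPM. For mast cell and basophil markers the sums were 852 and 476 against 679 and 769 CPM, and for B cell markers 3.87 and 4.21 against 8.16 and 9.04 CPM. The part of any of these cells in the chemokine levels was not tested.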

How the data were processed

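RNA-seq was performed on 4 libraries of ribosomal RNA-depleted total RNA, prepared with a stranded kit. The authors deposited raw read counts per gene and library; the processing notes name STAR, HTSeq and mm9, and the strand setting of the counting was not given in the sources used here. Rows for unassigned reads were left out of library sizes: reads in no gene made up between 35.8% and 48.3% of uniquely aligned reads. Gene positions were taken from GENCODE vM1. Counts were tested in R 4.3.3 with edgeR 4.0.16 (glmQLFit and glmQLFTest, TMM, filterByExpr with a minimum count of 10, no covariates), p-values were adjusted by Benjamini-Hochberg over all 16500 genes tested, and calls needed a 1.5-fold change and an adjusted p under 0.05. Fold changes are Chaf1b-deleted over control. CPM values in the text use total gene counts without TMM. Alternatives were DESeq2 1.42.0, edgeR's exact and likelihood ratio tests, other scalings, filters and thresholds, a replicate block, and leaving out each library. Counting intervals are exact and cover counting error only; 3 counts were taken as the floor. The fit was tested on simulated data. All 10 members were named, and from each other list the called genes or those with the smallest p, and genes that a sentence on a member turns on; neighbours on chromosome 5 were named by position. Members and lists were chosen with earlier results of these data known.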

Additional observations from a re-analysis of the deposited data

How the results depend on the processing

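The number of genes called depended strongly on the test, the filter and the scaling, and no alternative called a member lower. The calls were 61 genes higher and 1 lower, 2 members higher and 1 gene of the other pathway lists. When edgeR used the size factors of DESeq2, 27 genes, 0 members and 0 other pathway genes were called higher, and with library size only 30, 0 and 0; with upper quartile scaling 1 member was called. The median log2 fold change of all genes was between -0.05 and -0.01 under the scalings. Without a filter on low counts, 808 genes were higher and 79 lower, with 6 members and 35 other pathway genes; with at least 10 counts in every library the numbers were 3, 0, 0 and 0, fewer genes being tested. edgeR's exact test gave 537 higher, 37 lower, 5 members and 19 others, its likelihood ratio test 583, 40, 5 and 22, and DESeq2 472, 34, 5 and 12. A 2-fold change with an adjusted p under 0.01 left 0 in each class. The bias-adjusted quasi-likelihood fit, chosen after seeing the data, called 80 genes and 3 members higher.

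Leaving out each library in turn gave between 125 and 331 genes higher, between 6 and 42 lower, between 2 and 5 members and between 3 and 27 others. The log2 fold change of Cxcr4 ranged from -0.11, without Chaf1b-deleted library 1, to 0.68, and Chaf1b stayed between -2.24 and -1.74. With at least 10 counts in every library, Chaf1b had -2.0 and an adjusted p of 0.0651.

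Same-numbered libraries did not deviate together (correlation of deviations 0.01 across genes). This does not settle whether they shared an animal, culture or preparation, which the labels do not give. With the replicate block, 14 genes were called higher and 0 lower, 0 members and 0 other pathway genes, and Chaf1b had a log2 fold change of -1.98 (edgeR quasi-likelihood, adjusted p = 0.0592). Cxcl9 and Cxcr2 were each called in 9 of the 15 alternatives run, the stricter filter removing Cxcl9. Genes near 3 counts (Cxcl1, Cxcl11 and Cxcr3) are limited by depth. Where an alternative changed a call, the cause was not tested.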

Other observations

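Genes that act on chemokine receptor signalling were read as a further list. Of 19 such genes, 0 were called by edgeR's quasi-likelihood test, and an unadjusted p under 0.05 was reached by 3 upward (9.15% over all genes) and 0 downward. The exact test of edgeR (3.25% over all genes) and DESeq2 (472 of 16500 genes) each called 1 higher. These shares lie near those over all genes. The median log2 fold change was 0.16, against -0.03 over all genes tested. Rgs1, a regulator that dampens G protein signalling, had 58.5 and 28.6 CPM in control and 107 and 112 CPM after deletion (log2 fold change 1.35, SE 0.34, edgeR quasi-likelihood, adjusted p = 0.163). Rgs2, of the same family, had 107 and 115 CPM in control and 152 and 164 CPM after deletion (log2 fold change 0.53, SE 0.19, adjusted p = 0.325). Dpp4, a peptidase that trims the amino end of chemokines such as Cxcl10 and Cxcl12, had 12.4 and 14.4 CPM in control and 18.1 and 22.5 CPM after deletion (log2 fold change 0.62, SE 0.25, adjusted p = 0.374). These are the 3 genes of the list with an unadjusted p under 0.05. For them both deleted libraries were above both controls, which held for 6 of the 19 genes and for 21.4% of all genes tested.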
